A study of Mus musculus with 43 samples.

Results

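A stretch of 8 genes on mouse chromosome 2 was followed in 43 RNA-seq libraries of purified brain glia. These were Rag2, the gene removed in the mice of the study, its partner Rag1, the gene Iftap in which both lie, and the neighbours Traf6, Prr5l, Commd9, Ldlrad3 and Trim44. They were chosen by name and position, and all 8 were found among the 55416 genes counted in every library. Cortical grey matter of 3-month-old mice was dissociated, and microglia, oligodendrocyte precursor cells (OPCs), oligodendrocytes and astrocytes were captured one after another on antibody-coated plates. The colony came from B6.Cg-Rag2tm1.1Cgn/J mice crossed to C57BL/6J, and Rag2+/- parents gave the littermates that were compared. Oligodendrocytes came from 4 control and 4 Rag2-/- mice, OPCs from 6 and 5, and astrocytes and microglia from 6 and 6 each. The controls pooled 2 genotypes, Rag2+/- in littermate pairs 1, 2, 3 and 5 and Rag2+/+ in pairs 4 and 6, and every cell type of a mouse came from the same suspension. The Rag2-/- mice carry the deletion in every tissue, and its exact bounds are not given in the sources used here.

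Rag1 and Rag2 encode the 2 subunits of the recombinase that cuts DNA to assemble antibody and T cell receptor genes, so mice without either lack mature T and B cells. Their expression is a property of developing lymphocytes, and glia are not known to use them. Iftap encodes intraflagellar transport associated protein, a small partner of the machinery that carries cargo along the primary cilium. Traf6 is a ubiquitin ligase that relays Toll-like and interleukin-1 receptor signals to NF-kappaB. Prr5l is a partner of the kinase complex mTORC2, Commd9 belongs to the COMMD proteins that sort receptors in endosomes, Ldlrad3 is a membrane protein of the LDL receptor class that serves some alphaviruses as a receptor, and Trim44 is a protein of the tripartite motif class.

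In the GRCm39 annotation, Iftap (ENSMUSG00000027165) runs on the minus strand at chr2:101391125-101484020. Rag2 (ENSMUSG00000032864), on the plus strand at chr2:101455063-101462874, and Rag1 (ENSMUSG00000061311), on the minus strand at chr2:101468603-101479877, are both nested in it. All 1003 coding bases of Iftap, in 12 stretches pooled over its transcripts, lie on the low-coordinate side of Rag2. That side is past Rag2 in the direction of Iftap transcription. Of 37 annotated Iftap transcripts, 25 begin inside an intron of Rag2, 7 begin beyond Rag2 on the low-coordinate side, 3 begin within Rag1 and 2 beyond Rag1. The transcript that the annotation marks as canonical begins at the first base of Rag1. Iftap shares 208 exonic bases with the coding part of Rag2, on opposite strands, and 111 noncoding exonic bases with Rag1, on the same strand. No coding base of Iftap is shared with either gene.

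**Figure D1:**
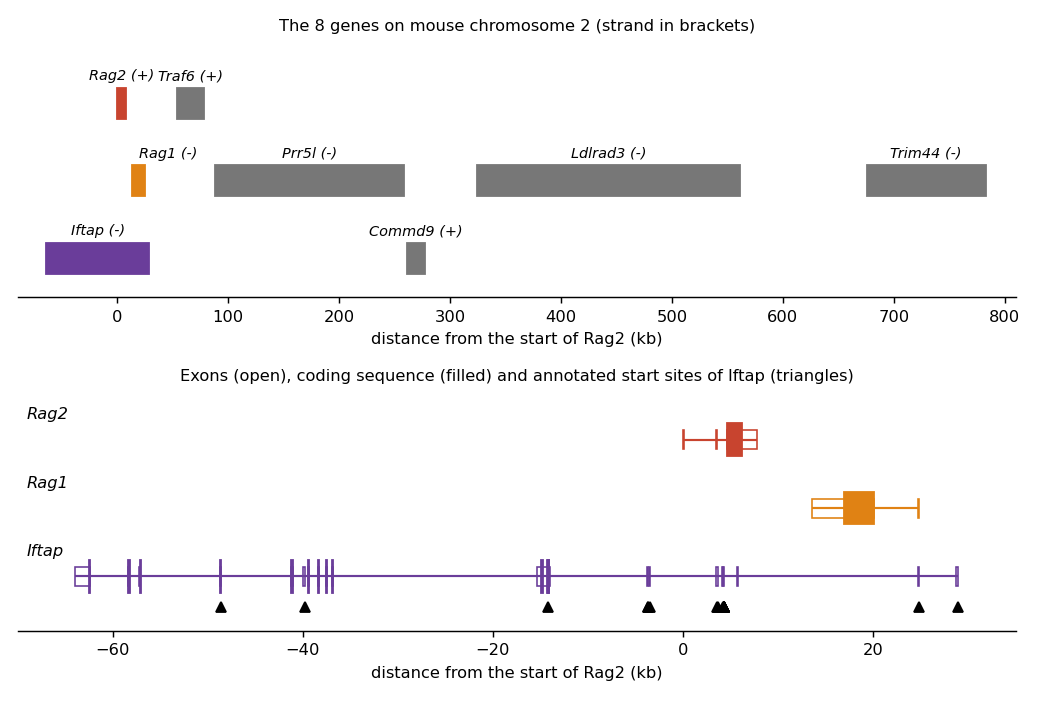
The 8 genes by distance from the start of Rag2 in kb (upper panel), and Rag2, Rag1 and Iftap enlarged (lower panel), with exons as open boxes, coding sequence as filled boxes and annotated Iftap start sites as triangles. Rag2 and Rag1 lie within Iftap, whose coding exons all sit to the left of Rag2, while the 5 neighbours lie to the right.

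The sequence before the Iftap start inside Rag2 is shown because it places an annotated Iftap start in the intron next to the Rag2 coding exon. The RefSeq promoter windows, given on GRCm38.p6, were found by exact match in GRCm39, and all 8 genes had at least 1. Each sequence below holds the 250 bases before a start site and the start base itself, read 5′ to 3′ on the gene's strand. The Iftap window, chr2:101459376-101459626 on the minus strand, lay wholly in a Rag2 intron. Its edge farthest from the Iftap start lay 40 bases from the Rag2 exon that holds the coding sequence. The second window, chr2:101479877-101480127 on the minus strand, precedes the start shared by Rag1 and the canonical Iftap transcript. The third, chr2:101716357-101716607 on the plus strand, precedes Commd9 and is shown because it shares a motif with the first. Capitals mark matches to ACTACANNTCCCA on either strand.
Iftap, start in Rag2: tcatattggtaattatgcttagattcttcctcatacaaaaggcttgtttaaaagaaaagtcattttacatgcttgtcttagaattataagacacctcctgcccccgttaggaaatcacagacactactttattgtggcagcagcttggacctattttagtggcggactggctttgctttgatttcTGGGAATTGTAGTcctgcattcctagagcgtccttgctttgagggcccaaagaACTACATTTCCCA
Rag1, start shared with Iftap: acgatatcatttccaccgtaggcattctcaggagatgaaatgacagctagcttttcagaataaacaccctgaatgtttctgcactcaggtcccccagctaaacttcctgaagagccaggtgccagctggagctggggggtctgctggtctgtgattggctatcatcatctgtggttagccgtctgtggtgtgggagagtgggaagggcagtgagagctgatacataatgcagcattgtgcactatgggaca
Commd9: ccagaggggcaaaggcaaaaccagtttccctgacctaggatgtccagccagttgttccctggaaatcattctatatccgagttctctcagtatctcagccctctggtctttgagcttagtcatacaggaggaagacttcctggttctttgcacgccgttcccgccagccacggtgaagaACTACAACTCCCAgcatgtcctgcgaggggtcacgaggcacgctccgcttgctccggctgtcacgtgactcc
The motif is the stretch of 13 bases, with N where they differ, that the Commd9 window shares with both strands of the Iftap window, and it was noticed, and its length set, on reading these sequences. In the Iftap window it began 12 bases before the start on the gene's strand, and a match on the other strand began 65 bases before the start, while in Commd9 it began 71 bases before the start. Of 32851 RefSeq windows of this length plus the first 50 transcribed bases, 1.47% held the motif on either strand. The other windows of the 8 genes, including a further Iftap window at chr2:101451391-101451641 beyond Rag2, did not hold it.

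Counts on genes ran from 6499417 to 23118497 per library (median 10447042). Levels are given as CPM, counts scaled to a common library size with TMM factors over all 43 libraries, and comparisons between genes as CPM per kb of exons. The panel genes of each purified cell type were highest in that cell type, 7 of 7 for oligodendrocytes, 7 of 7 for OPCs, 8 of 8 for astrocytes and 8 of 8 for microglia. Mitochondrial genes took 45.8% to 60.1% of counts in oligodendrocytes and 6.75% to 11.7% in microglia. The reads carry no molecular identifiers, so counting intervals and floors cover counting error only. Each cell type had a sequencing lane of its own, so a difference between cell types cannot be told apart from one between lanes.

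Iftap was at or near 0 in Rag2-/- mice and was present in every control library of every cell type. Iftap reached 5.45 to 13.96 CPM in control OPCs, 6.79 to 14.8 CPM in control astrocytes, 2.22 to 8.18 CPM in control microglia and 4.23 to 11.8 CPM in control oligodendrocytes. Astrocyte Rag2-/- libraries held 0 counts of Iftap in all 6 mice, against 56, 56, 86, 94, 80 and 156 counts in the controls of pairs 1 to 6. OPC controls of pairs 1 to 6 held 134, 51, 72, 120, 102 and 208 counts, and the 5 Rag2-/- libraries held 0, 0, 0, 0 and 2. Control and Rag2-/- libraries therefore did not overlap in either cell type.

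Microglia controls of pairs 1 to 6 held 14, 33, 49, 97, 34 and 131 counts of Iftap, and Rag2-/- microglia held 0 in 5 mice and 1 in the remaining mouse. Oligodendrocyte controls of pairs 1, 3, 5 and 6 held 34, 41, 36 and 77 counts, against 0, 0, 0 and 2 in Rag2-/- oligodendrocytes. All 5 Iftap counts seen in Rag2-/- libraries came from the female mouse of pair 6, whose Rag2+/+ littermate had the highest Iftap level of the controls in each of the 4 cell types. In all 4 cell types every Rag2-/- library lay below every control library. Of 21368 genes, Iftap alone did so in each of the 4 cell types (0.00468%), and 0 genes lay above the controls in each.

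**Figure D2:**
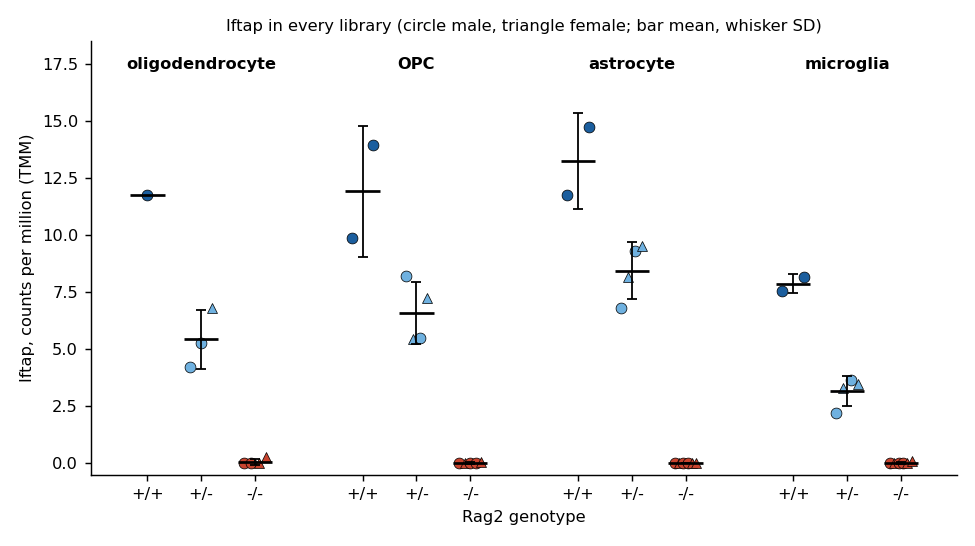
Iftap in each library, in TMM-scaled CPM, by cell type and Rag2 genotype, with bars for means and whiskers for SD. Rag2-/- libraries lie between 0 and 0.2795 CPM, Rag2+/- libraries between 2.22 and 9.54 CPM and Rag2+/+ libraries between 7.58 and 14.8 CPM, and within each cell type the 3 genotypes do not overlap.

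Against a floor of 3 counts per library, Iftap was at least 46.1-fold lower in Rag2-/- OPCs, at least 31.8-fold lower in astrocytes, at least 18.3-fold lower in microglia and at least 17.6-fold lower in oligodendrocytes. The difference passed edgeR's quasi-likelihood test, with sex as a covariate, in astrocytes (adjusted p = 1.28e-05), OPCs (adjusted p = 2.84e-05) and microglia (adjusted p = 5.70e-06), and Iftap had the smallest p-value in each. Iftap was the only gene called in these fits, 1 of 14725 in astrocytes (0.00679%), 1 of 16882 in OPCs (0.00592%) and 1 of 15003 in microglia (0.00667%). In oligodendrocytes it ranked second of 13802 genes but did not pass edgeR's adjustment (log2 difference -6.87 ± 1.41 SE, edgeR adjusted p = 0.998). DESeq2 called it there (adjusted p = 3.55e-05) among 200 of 25944 genes, 0.771%, while edgeR called 0 of 13802 (467 at an unadjusted p under 0.05). A test of whether the Iftap difference itself varied among cell types did not pass (edgeR interaction, adjusted p = 0.654), and 0.248% of genes did. In bulk samples like these, fewer cells of a type and less RNA per cell cannot be told apart.

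Markers of lymphocytes, the cells that Rag2-/- mice lack, were examined beside Iftap. In OPCs the summed level of 10 lymphocyte marker genes was 0.0713 to 1.24 CPM in controls and 0.388 to 1.35 CPM in Rag2-/- libraries, and in astrocytes 0.5002 to 3.25 and 0.372 to 3.76 CPM. Cd3d, a part of the T cell receptor complex, was at 0 in every OPC and astrocyte library, but other genes of the list were not. Trac held 3 to 26 counts in control and 3 to 28 in Rag2-/- astrocytes. Cd79a reached 6 counts in control and 20 in Rag2-/- OPCs. Of the 10 genes, 4 were at 0 throughout control OPCs and 4 throughout Rag2-/- OPCs, against 7 in control and 6 in Rag2-/- astrocytes. In these cell types the Iftap level of each control library stood above the sum of the list. In microglia the list summed to 5.45 to 26.7 CPM in controls and 1.85 to 10.5 CPM in Rag2-/- libraries, and in oligodendrocytes to 9.58 to 57.2 and 13.4 to 46.1 CPM. Single genes of the list differed. Cd3e held 8 to 39 counts in control microglia and 0 in all Rag2-/- microglia, but 0 in control and 0 to 18 in Rag2-/- oligodendrocytes. Cd79b held 13 to 54 counts in control and 16 to 135 in Rag2-/- microglia. Igkc held 73 to 352 counts in control and 121 to 321 in Rag2-/- oligodendrocytes. The part of lymphocytes in the Iftap difference was not tested in any cell type. The 6 ependymal genes, which mark cells with many motile cilia, summed to 21.7 CPM at most in any library. Tmem212 among them was at 0 in all 43, while Foxj1 held 121 to 276 counts in control OPCs and 143 to 256 in Rag2-/- OPCs. Ccdc153 reached 85 counts in Rag2-/- oligodendrocytes and was at 0 in control oligodendrocytes.

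Iftap was also lower in Rag2+/- than in Rag2+/+ controls. In each cell type every Rag2+/- library lay below every Rag2+/+ library of that cell type. In astrocytes the Rag2+/- mice stood at 6.79, 8.16, 9.30 and 9.54 CPM and the Rag2+/+ mice at 11.8 and 14.8 CPM. In OPCs they stood at 8.20, 5.45, 5.50 and 7.27 CPM against 9.89 and 13.96 CPM. In microglia they stood at 2.22, 3.30, 3.66 and 3.48 CPM against 7.58 and 8.18 CPM. In oligodendrocytes 3 Rag2+/- mice stood at 4.23, 5.29 and 6.82 CPM and the single Rag2+/+ mouse at 11.8 CPM. The mean of Rag2+/- mice was 63.7% of the Rag2+/+ mean in astrocytes, 55.4% in OPCs, 40.2% in microglia and 46.2% in oligodendrocytes.

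Of 21368 genes, Iftap alone had every Rag2+/- library below every Rag2+/+ library in each of the 4 cell types (0.00468%). In single cell types such a separation was common, at 5.07% of genes in OPCs, 7.34% in astrocytes, 6.70% in microglia and 22.4% in oligodendrocytes. Among the neighbours Trim44 separated so in 2 cell types, Ldlrad3 in 1, and Traf6, Prr5l and Commd9 in 0. Libraries of 1 mouse share that mouse, so the mice are the replicates. The mean CPM of Iftap over OPCs, astrocytes and microglia was 5.74, 5.63, 6.15 and 6.76 in the 4 Rag2+/- mice and 9.74 and 12.3 in the 2 Rag2+/+ mice. On the log2(CPM + 0.5) scale Rag2+/- mice differed by -0.88, with all 4 below both others (two-sided exact permutation test, p = 0.133, which is the smallest that 4 mice against 2 allow). Of all genes, 6.49% separated the mice in this direction, and 70 of 21368 had a difference as low or lower (0.328%).

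The edgeR fit with 3 genotypes gave log2 differences of Rag2+/- from Rag2+/+ of -1.46 in microglia (95% interval -2.72 to -0.20), -0.97 in OPCs (-2.18 to 0.24), -0.72 in astrocytes (-1.85 to 0.41) and -1.67 in oligodendrocytes (-4.79 to 1.45). None passed the adjustment over all genes (edgeR adjusted p = 0.628, 0.936, 0.796 and 0.678 in that order), where 2 of 13802 genes did in oligodendrocytes (0.0145%) and 0 in the others. In microglia the unadjusted p was 0.0248, as it was under 0.05 for 7.22% of genes. Both Rag2+/+ mice were male and 2 of the 4 Rag2+/- mice were female. Among males alone, 2 against 2, the difference over mice was -0.92 (exact permutation p = 0.333, the smallest possible). The same edgeR fit gave the neighbour Ldlrad3 -0.99 in OPCs (95% interval -1.64 to -0.34, edgeR unadjusted p = 0.0053, adjusted p = 0.888). There 5.35% of genes had an unadjusted p under 0.05. Ldlrad3 differed by -0.25 in astrocytes and 0.99 in oligodendrocytes. Prr5l ran the other way in astrocytes, at 1.29 (0.18 to 2.39, edgeR adjusted p = 0.636).

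Rag2 and Rag1 themselves were at or near 0 in glia of every genotype, so Rag2 counts could not check the genotype labels. Rag2 gave 6 counts in all, 4 in the OPCs of the Rag2+/+ mouse of pair 6 and 1 each in the microglia of the Rag2+/- mice of pairs 3 and 5. No Rag2-/- library held a count of Rag2, which at this depth allows up to 3 per library. Rag1 gave 32 counts in 7 libraries, of which 12 were in the oligodendrocytes of the Rag2+/+ mouse of pair 6 and 7 in OPCs of the Rag2+/- mouse of pair 5. Rag2-/- libraries held 4 Rag1 counts in the astrocytes of pair 3, 4 in the oligodendrocytes of pair 1 and 3 in the OPCs of pair 2. Microglia held none in either group. Neither gene passed the filter on low counts in any cell type, and without the filter neither was called wherever it had a count (edgeR adjusted p from 0.915 to 0.968).

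The 5 neighbours on the high-coordinate side of Rag2 did not show the loss that Iftap showed in Rag2-/- mice. Their ends nearest to Rag2 lie 45.6 kb (Traf6), 80.6 kb (Prr5l), 253.7 kb (Commd9), 316.6 kb (Ldlrad3) and 667.6 kb (Trim44) past it, and for Prr5l, Ldlrad3 and Trim44, on the minus strand, that is the 3′ end. Control and Rag2-/- libraries overlapped for each of the 5 in each of the 4 cell types, where the share of genes that did not overlap was 2.17% for oligodendrocytes, 0.374% for OPCs, 0.108% for astrocytes and 0.145% for microglia. None of the 5 was called in any cell type in which it was tested, and Ldlrad3 was not tested in microglia because of its low counts.

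Traf6, nearest to Rag2, stood at 73.1 to 109.4 CPM (median 103.7) in control microglia and at 90.7 to 111.3 CPM (median 104.9) in Rag2-/- microglia. Its log2 difference was 0.03 (95% interval -0.20 to 0.26). In astrocytes the Traf6 difference was 0.09 (-0.24 to 0.41), in OPCs -0.10 (-0.37 to 0.17) and in oligodendrocytes -0.08 (-0.77 to 0.60).

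Prr5l in oligodendrocytes stood at 60.6, 41.3, 28.4 and 44.2 CPM in controls of pairs 1, 3, 5 and 6 and at 46.6, 65.6, 23.4 and 46.5 CPM in their Rag2-/- littermates. Both members of pair 5 were the lowest of their group. Prr5l differed by 0.20 on the log2 scale in oligodendrocytes (95% interval -0.54 to 0.94), by 0.05 in microglia (-0.23 to 0.34), by 0.10 in astrocytes (-0.66 to 0.86) and by -0.28 in OPCs (-1.41 to 0.84). The direction was not stable in the last 2, at 0.42 in OPCs and -0.11 in astrocytes with the littermate pair as a block and 0.28 and -0.18 against Rag2+/- controls alone. Without the Rag2+/+ mouse of pair 6, Prr5l differed by 0.41 in OPCs and -0.09 in astrocytes, and in astrocytes it also turned without the control of pair 5 (-0.04) or the Rag2-/- mouse of pair 3 (-0.22).

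Ldlrad3 had the largest positive estimates of the 5 in astrocytes and oligodendrocytes. In astrocytes it ran from 17.96 to 34.9 CPM (median 21.8) in controls and from 24.9 to 40.3 CPM (median 27.6) in Rag2-/- mice, higher in 5 of 6 pairs (log2 difference 0.34 ± 0.17 SE, 95% interval -0.02 to 0.70, edgeR adjusted p = 1.00). In oligodendrocytes the controls of pairs 1, 3, 5 and 6 stood at 60.7, 52.2, 9.09 and 19.3 CPM and the Rag2-/- mice at 48.5, 37.5, 51.5 and 73.4 CPM. The controls thus spread over a wider range than the Rag2-/- mice, 2 pairs rose and 2 fell, and the log2 difference of 0.79 (95% interval -0.56 to 2.14) did not pass. Without the control of pair 5 it was -0.05.

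Commd9 kept its counts in Rag2-/- mice. In OPCs it stood at 3.22 to 10.8 CPM (median 7.04) in controls and 6.81 to 14.05 CPM (median 7.62) in Rag2-/- libraries, with a log2 difference of 0.25 (95% interval -0.41 to 0.91). The Commd9 differences were 0.24 in astrocytes, 0.04 in microglia and 0.38 in oligodendrocytes, none past the test. The oligodendrocyte library of the Rag2+/+ mouse of pair 6 held 7 counts of Commd9 (1.07 CPM), against 8.09 to 12.5 CPM in the other controls, and without it the oligodendrocyte difference of Commd9 was 0.01. Without the control of pair 5 that difference was 1.07. Trim44, the farthest, stood at 218.6 to 255.0 CPM in control astrocytes and 203.7 to 272.5 CPM in Rag2-/- astrocytes, a log2 difference of 0.03 (-0.16 to 0.22), and its differences in the other cell types lay between -0.15 and 0.13.

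**Figure D3:**
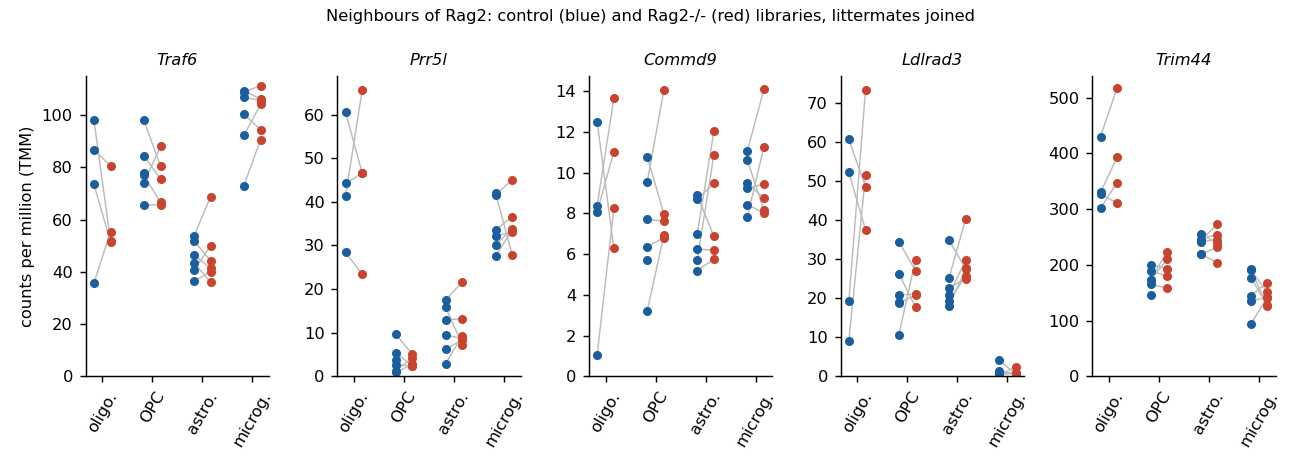
TMM-scaled CPM of the 5 neighbours in control (blue) and Rag2-/- (red) libraries of oligodendrocytes, OPCs, astrocytes and microglia, with littermates joined by lines. The groups overlap in every panel, and the joined pairs run in both directions.

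The wider neighbourhood was also tested. Within 5 Mb of Rag2 the tests covered 33 genes in microglia, 36 in astrocytes, 42 in OPCs and 35 in oligodendrocytes. Besides Iftap in OPCs, astrocytes and microglia, edgeR called none of them, and the other genes had log2 differences from -1.29 to 1.37, with medians between -0.06 and 0.12. Without Iftap, 3 of these genes in OPCs and 0 in the other cell types had an unadjusted p under 0.05, where 4.02% of all genes in OPCs, 3.38% in oligodendrocytes, 2.87% in astrocytes and 2.90% in microglia did. The 3 in OPCs were Slc1a2 (log2 difference 0.53 ± 0.17 SE), Gm13872 (1.25 ± 0.58 SE) and Fjx1, all higher in Rag2-/- mice. Fjx1, 816.8 kb past Rag2, stood at 15.5 to 26.0 CPM in controls and 14.6 to 51.4 CPM in Rag2-/- mice (log2 difference 0.71 ± 0.28 SE, edgeR adjusted p = 1.00). Pamr1, at 917.2 kb, had log2 differences of 0.51 in OPCs, -0.16 in astrocytes and 0.43 in oligodendrocytes, none past the test. Both are astrocyte-rich, Fjx1 at 203.3 ± 26.7 CPM in control astrocytes against 18.53 ± 3.86 in control OPCs and Pamr1 at 36.9 ± 7.41 against 4.43 ± 1.78 (SD, n = 6 each). DESeq2 on all genes called 3 genes of the window in oligodendrocytes, which were Iftap, Pax6os1 and Gm56319, and edgeR without the filter on low counts called Slc1a2, a glutamate transporter gene of astrocytes, besides Iftap in OPCs. The 8 astrocyte markers, none at 0, summed to 541.2 to 1111 CPM (median 869.2) in control OPCs and 770.6 to 1916 CPM (median 1189) in Rag2-/- OPCs, and their part in the OPC differences of Fjx1, Pamr1 and Slc1a2 was not tested.

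**Figure D4:**
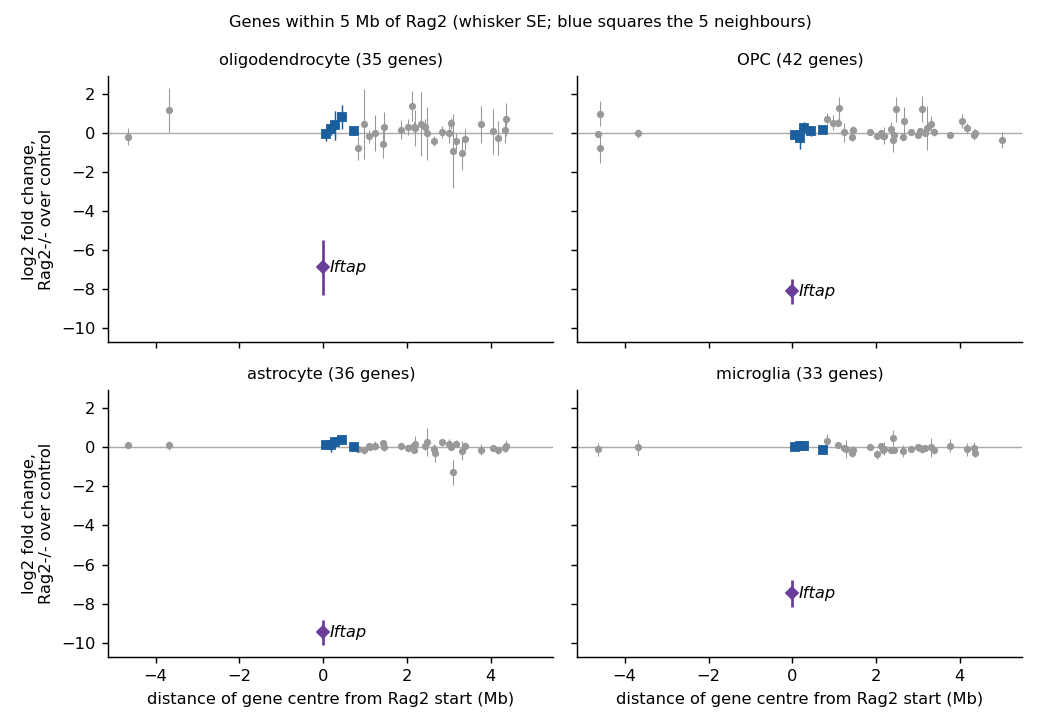
Log2 difference of Rag2-/- from control libraries, with SE, against the distance of each gene's centre from the start of Rag2 in Mb, for the genes tested in each cell type (blue squares, the 5 neighbours). Iftap lies between -9.47 and -6.87 in the 4 panels and every other gene between -1.29 and 1.37.

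Among controls the 6 measurable genes differed in level and in cell type. Per kb of exons Iftap was the lowest of them in oligodendrocytes, at 1.37 ± 0.65 CPM per kb (SD, n = 4). It was the next lowest after Prr5l in OPCs (1.63 ± 0.63, SD, n = 6) and astrocytes (1.96 ± 0.55, SD, n = 6), and after Ldlrad3 in microglia (0.92 ± 0.49, SD, n = 6). Trim44 was the highest in every cell type, from 20.9 ± 5.21 CPM per kb in microglia to 46.7 ± 7.63 (SD, n = 4) in oligodendrocytes. Of the 36 tests of 6 genes in 6 pairs of cell types, 18 passed. Of all genes, 27.6% passed between oligodendrocytes and OPCs, 38.1% between oligodendrocytes and astrocytes, 30.6% between OPCs and astrocytes, and 59.1%, 60.9% and 61% between microglia and oligodendrocytes, OPCs and astrocytes. The share of the 6 genes was thus within the range over all genes.

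Iftap ordered as astrocytes (10.0 ± 2.83 CPM), OPCs (8.38 ± 3.21), oligodendrocytes (7.03 ± 3.34, n = 4) and microglia (4.74 ± 2.49, SD, n = 6 for the others). Astrocytes exceeded microglia past the test (log2 difference 1.09 ± 0.35 SE, edgeR adjusted p = 0.0103), and neighbours in the order did not differ past it. With the control mouse as a block, since the cell types came from the same mice, OPCs also exceeded microglia (0.81, edgeR adjusted p = 0.0134, against 0.0754 without the block).

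Prr5l, the mTORC2 partner, was higher in oligodendrocytes than in their precursors. It stood at 43.6 ± 13.2 CPM (SD, n = 4) in oligodendrocytes and at 3.95 ± 3.27 (SD, n = 6) in OPCs, a log2 difference of 3.44 ± 0.49 SE (edgeR adjusted p = 1.39e-05). Microglia held 34.5 ± 5.98 CPM of Prr5l (SD, n = 6), which did not differ past the test from oligodendrocytes (log2 difference 0.26, 95% interval -0.71 to 1.22). Astrocytes lay between, at 10.8 ± 5.67 CPM (SD, n = 6), and differed from each of the other cell types (edgeR adjusted p = 0.00247 from oligodendrocytes, 0.0112 from OPCs and 0.00197 from microglia). Oligodendrocyte marker genes summed to 3707 to 5039 CPM in control astrocyte libraries and to 349 to 1188 CPM in control OPC libraries, against 27035 to 34567 CPM in oligodendrocytes, and their part in the astrocyte level of Prr5l was not tested.

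Ldlrad3 was nearly absent from microglia. Its 6 control microglia libraries held 0.41 to 4.18 CPM, against 17.96 to 34.9 CPM in astrocytes, 10.7 to 34.5 CPM in OPCs and 9.09 to 60.7 CPM in oligodendrocytes, with no overlap. It was lower in microglia by 4.205 ± 0.48 SE on the log2 scale than in astrocytes (edgeR adjusted p = 5.14e-08), and the other 3 cell types did not differ past the test among themselves.

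Traf6 ran in the opposite direction. It was highest in microglia at 98.5 ± 14.1 CPM (SD, n = 6), lowest in astrocytes at 45.4 ± 6.63 (SD, n = 6), and between these in OPCs and oligodendrocytes at 79.5 ± 11 and 73.6 ± 27.3. Microglia exceeded astrocytes by 1.12 ± 0.18 SE (log2, edgeR adjusted p = 7.38e-06), and oligodendrocytes and OPCs did not differ past the test. Trim44 was highest in oligodendrocytes at 347.0 ± 56.7 CPM (SD, n = 4), by 1.02 ± 0.18 SE over OPCs (log2, edgeR adjusted p = 0.000127). Commd9 differed past the test in none of the 6 pairs, with means from 6.96 to 9.45 CPM.

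**Figure D5:**
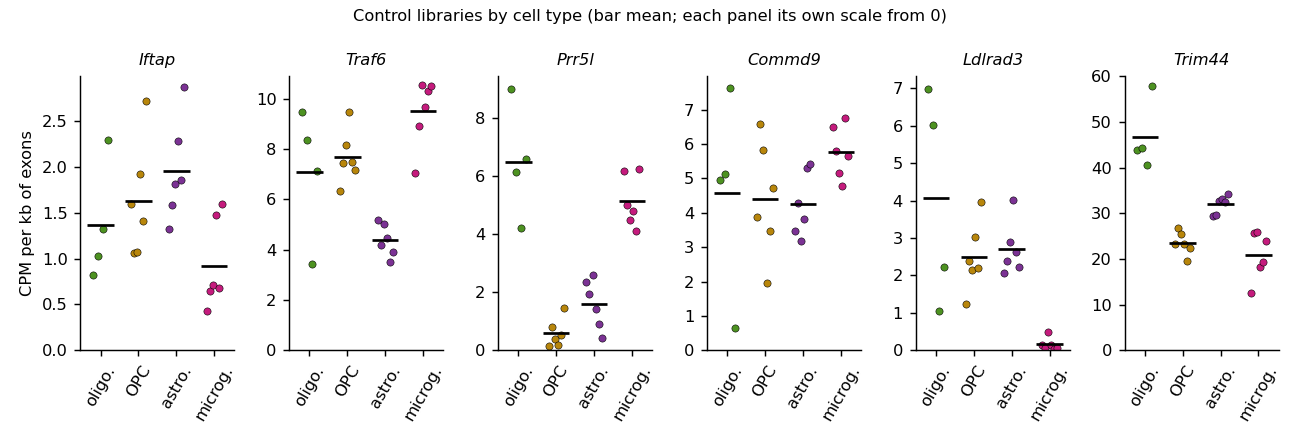
CPM per kb of exons in control libraries of oligodendrocytes, OPCs, astrocytes and microglia, one panel per gene with its own axis from 0, and bars for means. Prr5l separates oligodendrocytes and microglia from OPCs and astrocytes, Ldlrad3 separates microglia from the rest, and Commd9 overlaps in all 4 cell types.

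The known partners of these proteins were examined as 5 lists, the intraflagellar transport complexes IFT-B and IFT-A, the COMMD and CCC complex, TRAF6 signalling and mTORC2. No gene of any list was called higher or lower in Rag2-/- mice in any cell type by edgeR, where at most 0.00679% of all genes were called. For IFT-B, 13 of 18 genes were tested in microglia, 17 in astrocytes, 17 in OPCs and 16 in oligodendrocytes, with median log2 differences of -0.22, -0.05, -0.05 and 0.09, beside medians over all genes from -0.01 to 0.00. Its smallest unadjusted p-values belonged to Ift172 in oligodendrocytes (log2 difference -1.66 ± 0.59 SE), Ift46 in microglia (-0.41 ± 0.16 SE), Ift70a1 in OPCs (1.31 ± 0.69 SE) and Ift25 in astrocytes (-0.82 ± 0.46 SE). For IFT-A, the complex Iftap is known to bind, all 6 genes were tested in 3 cell types and 5 in microglia, and medians ran from -0.09 to 0.16. Its smallest p-values belonged to Ift122 in microglia (1.25 ± 0.43 SE, edgeR adjusted p = 0.999), Wdr19 in oligodendrocytes (-0.53 ± 0.57 SE), Ttc21b in OPCs (-0.20 ± 0.21 SE) and Ift140 in astrocytes (-0.29 ± 0.23 SE).

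Among the 16 COMMD and CCC genes, 14 were tested in each cell type and medians ran from -0.08 to -0.02. The smallest p-values were those of Commd6 in OPCs (log2 difference 0.50 ± 0.16 SE, edgeR adjusted p = 1.00), Vps26c in oligodendrocytes (-0.83 ± 0.74 SE), Vps29 in astrocytes (0.18 ± 0.13 SE) and Commd7 in microglia (-0.24 ± 0.14 SE). Of 21 TRAF6 signalling genes, 19 to 21 were tested with medians from -0.04 to 0.06, led by Ikbkb in oligodendrocytes (0.91 ± 0.38 SE) and astrocytes (-0.20 ± 0.15 SE), Irak1 in OPCs (0.27 ± 0.14 SE) and Irak3 in microglia (0.43 ± 0.22 SE). The 7 mTORC2 genes, Prr5l among them, were all tested, with medians from -0.09 to 0.20. Prr5 had the smallest p-value of that list in oligodendrocytes (1.67 ± 1.48 SE), OPCs (0.99 ± 0.53 SE) and astrocytes (0.18 ± 0.18 SE), and Mtor in microglia (0.18 ± 0.12 SE). None of these passed the adjustment.

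The genes whose levels ran most like Iftap depended on whether the Rag2-/- libraries were included. Over the 22 control libraries the highest Pearson correlations of log2(CPM + 0.5) among 21368 genes were those of Ncapd2 (0.81), Clasp1 (0.79), 4930480K15Rik (0.79), Lclat1 (0.79) and Smad9 (0.78). Over all 43 libraries they were those of Gm49706 (0.57), C230085N15Rik (0.50), Gm42943 (0.49), Wdr46-ps (0.44) and 1110032F04Rik (0.43), so no gene followed the loss of Iftap closely. None of these 10 lies on chromosome 2. Over controls the neighbours correlated with Iftap by 0.51 (Ldlrad3), 0.37 (Trim44), -0.45 (Prr5l), -0.47 (Commd9) and -0.48 (Traf6). These points share cell types and mice.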

How the data were processed

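RNA was converted to amplified cDNA and sequenced as read pairs of 50 bases. The authors aligned the pairs with STAR 2.7.8a to GRCm39 and counted them per Ensembl gene with HTSeq, per the labels and the paper, and deposited whole-number counts with no normalization. The strand setting and the mode for overlapping genes are not given in the sources used here, so reads from the bases shared by Iftap with Rag2 or Rag1 are uncertain. The 5 sums of reads on no gene, 33.53% to 51.95% of each library, entered neither library sizes nor tests.

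Gene positions came from GENCODE M39 on GRCm39, which held 54749 of 55416 gene IDs. For each cell type, genes past filterByExpr (minimum count 10, minimum total 15) were tested with edgeR 4.0.16 in R 4.3.3, by the quasi-likelihood test with sex and genotype as terms and TMM scaling, two-sided, with Benjamini-Hochberg adjustment over all genes tested and a threshold of 0.05. The same test compared cell types among controls with sex as a term, Rag2+/- with Rag2+/+, and the genotype difference between cell types. DESeq2 1.42.0 was an alternative. The fits were tested on simulated data. Where a group held 3 counts or fewer in every library, folds are lower bounds against 3 counts per library. Exact permutation tests, Pearson correlations and the promoter search were computed in Python 3.11.15. A pseudocount of 0.5 CPM was used on the log2 scale.

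Genes were named when they were 1 of the 8, when they were protein-coding within 1 Mb of Rag2 and tested, when called within 5 Mb, when called or of smallest p in a list, or when among the 5 most correlated with Iftap. Pax6os1, Gm56319, Slc1a2 and Gm13872 fall outside this rule and were chosen after their values were seen. The members and lists were chosen with earlier results of these data known. Littermate numbers come from the labels and the paper. The mean correlation over genes of littermates' deviations from their groups was 0.135 for astrocytes, 0.0865 for microglia, 0.111 for oligodendrocytes and 0.0889 for OPCs, and -0.0359 to -0.0176 between mice of different pairs. Separate mice were the replicates, and no libraries of a group were alike within sampling noise (smallest chi-square 7.45 per gene over 97 pairs).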

Additional observations from a re-analysis of the deposited data

Results flagged for a closer look

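Of 42 groups of control or Rag2-/- libraries examined for a library far from the others, 3 were singled out, and chance alone gives about 1 in 20. Traf6 in Rag2-/- oligodendrocytes stood at 80.6 CPM in pair 3, against 51.4 to 55.4 CPM in the other 3 libraries. Commd9 in Rag2-/- OPCs stood at 14.05 CPM in pair 3, against 6.81 to 7.99 CPM in the other 4. Ldlrad3 in Rag2-/- astrocytes stood at 40.3 CPM in pair 3, against 24.9 to 29.8 CPM in the other 5. All 3 came from the Rag2-/- mouse of pair 3, in a different cell type and gene each time.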

How the results depend on the processing

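The 19 results were recomputed under their alternatives, 276 values in all, of which 272 kept their direction and side of the threshold and none reversed. DESeq2 on all genes called Iftap in oligodendrocytes (log2 difference -7.13), which edgeR did not. It therefore called 1 of the 8 genes there in place of 0, and 3 genes within 5 Mb of Rag2 in place of 0. Without the filter on low counts edgeR called 2 genes within 5 Mb in OPCs in place of 1. The cause of these changes was not tested. Leaving out each library in turn, the Iftap genotype difference ran from -9.95 to -7.81 in OPCs, -9.57 to -9.35 in astrocytes, -8.75 to -7.24 in microglia and -8.78 to -6.37 in oligodendrocytes, and its call was kept in the first 3 (largest adjusted p = 0.000639). With the littermate pair as a block the differences were -9.77 in OPCs, -9.38 in astrocytes, -8.58 in microglia and -8.25 in oligodendrocytes, and the block changed no genotype call among the 8 genes. Between cell types 18 tests passed with or without the mouse as a block, which added Iftap in OPCs over microglia and removed Traf6 in oligodendrocytes below microglia (edgeR adjusted p = 0.0539 against 0.0232). Outside these 19 results, 11 of the 19 genotype differences of the 5 neighbours changed sign under at least 1 alternative, and none passed the test under any. The difference between Rag2+/- and Rag2+/+ mice ran from -1.03 to -0.73 with each control mouse left out, and 15 to 17 of the cell type tests passed in place of 18. The oligodendrocyte dosage without its only Rag2+/+ library could not be fitted. With 2 Rag2+/+ mice, both male, the exact permutation test over mice could not reach a p under 0.05.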
